A study of Mus musculus with 10 samples.

Results

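The cytosolic ribosomal protein genes were taken from the deposited count table by symbol: names of the form Rpl or Rps with a number and at most one letter and one further digit, together with Rplp0, Rplp1, Rplp2, Rpsa and Fau. This gave 84 of the 20295 genes of the table, 51 of the large subunit and 33 of the small subunit. Polyadenylated RNA was sequenced from brown fat taken between the shoulder blades of the mouse, a depot whose mitochondria burn fuel to make heat. Control mice (5) were kept at 22 °C and cold mice (5) at 4 °C for 3 days. All 10 were single-housed males of the strain C57BL/6JBomTac, 8 weeks old, with no transgene or drug named in the labels, and each gave 1 library. The columns of the count table are marked WT in both groups. One tag of the cold samples reads room temperature with 4 °C beside it, while their titles and source names place them in the cold group.

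The cytosolic ribosome is built from ribosomal RNA and about one copy of each of these proteins, and reads the messenger RNA in the small subunit while joining amino acids in the large one. Ribosomal protein messengers are abundant in nearly every cell, and many begin with a C followed by a run of pyrimidines, the 5′ terminal oligopyrimidine (TOP) tract, through which the kinase mTORC1 and the protein Larp1 set how well they are translated. That control acts on translation, which RNA counts do not measure. A few of the genes have relatives that are restricted to one tissue, such as Rpl39l and Rpl10l in spermatogenic cells and Rpl3l in striated muscle.

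The starts of 8 of these genes are shown because the tract is the sequence feature most of the family is known for, and because they include the 5 genes whose counts differed between the groups. Each line gives 30 bases of the RefSeq annotation on build GRCm38.p6, with 10 bases before the annotated transcript start and 20 from it. Capitals mark the tract from its first C within 5 bases of the start to the end of the run of C and T. A T directly before that C is left in lower case. The lines without capitals hold no tract within 5 bases of the annotated start.
Rps6: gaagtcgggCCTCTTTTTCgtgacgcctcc
Fau: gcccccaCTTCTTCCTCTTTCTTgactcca
Rplp2: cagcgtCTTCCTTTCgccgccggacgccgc
Rps2: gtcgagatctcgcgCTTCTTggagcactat
Rps24: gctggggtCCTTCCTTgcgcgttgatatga
Rpl39l: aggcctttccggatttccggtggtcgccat
Rps19: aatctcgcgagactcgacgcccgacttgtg
Rpl9: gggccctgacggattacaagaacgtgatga
On that build, the Rps6 window is chr4:86857348-86857377 on the minus strand, that of Rps2 chr17:24720053-24720082 on the plus strand and that of Rps19 chr7:24884582-24884611 on the plus strand. In Rps6 the marked run begins at the base just before the annotated start, and a C stands at the start itself. In Rps2 it begins at base 5 of the transcript.

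The motif searched was a C followed by at least 4 bases that are each C or T, on the transcript's strand only. It stood exactly at an annotated start in 14 of the 64 members found in the RefSeq table (21.9%), and in 3.01% of 27025 genes of that table. With the C anywhere within 5 bases of the start, it was found in 30 members (46.9%) and in 21.2% of the genes of the table. Of the 27 tested members with a tract within 5 bases, the median log2 fold change of cold relative to control was -0.10 (range -0.36 to 0.47). It was -0.07 in the 31 tested members without one (range -0.42 to 1.28). Rps2 and Rps24 were the called genes of the first set, and Rps19, Rpl9 and Rpl39l those of the second.

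Library totals ran from 4446163 to 6923932 counts, and the members held 24691 to 46615 of them. Markers of brown adipocytes were abundant in all libraries, with a summed level of 14016 to 16240 CPM in controls and 23603 to 27432 CPM in cold libraries, where CPM is the normalised read count, relative to the library total after scaling by the trimmed mean of M-values (TMM). Ucp1, the uncoupling protein of brown fat, rose by 1.02 on the log2 scale (SE 0.086, adjusted p = 1.18e-05, edgeR's quasi-likelihood test). In whole tissue, fewer cells of a type and less RNA per cell cannot be told apart.

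For most ribosomal protein transcripts no difference between control and cold brown fat passed the test. Of the 84 members, 77 had enough counts to be tested; 2 of these rose in the cold and 3 fell at an adjusted p under 0.05 (edgeR's quasi-likelihood test, Benjamini and Hochberg over all 11229 genes tested). Those 5 are 6.49% of the tested members. Across all genes tested, 19.3% were called, 10.2% higher and 9.14% lower in the cold. The genes that rose were Rps2 and Rpl39l, and those that fell were Rps19, Rps24 and Rpl9. At an unadjusted p under 0.05 the count was 10 members (13.0%), where 34.1% of all genes tested had such a p.

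**Figure D1:**
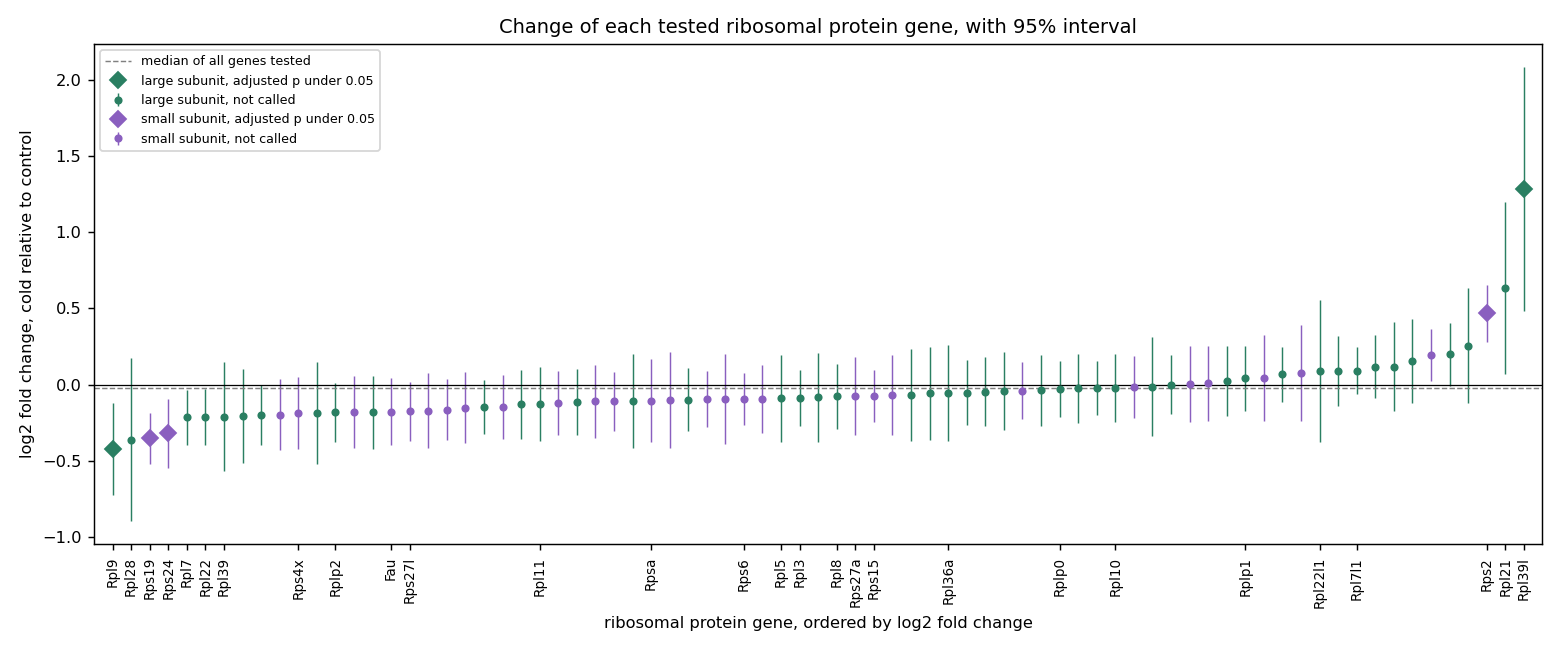
Log2 fold change of cold relative to control (vertical axis) for each of the 77 tested ribosomal protein genes, ordered along the horizontal axis and labelled where the text names them, with 95% intervals and the subunit by colour. Diamonds are the 5 genes with an adjusted p under 0.05, and the dashed line is the median of all genes tested, -0.02; all but Rpl21 and Rpl39l lie within 0.5 of 0.

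The spread of the changes was narrow. The median log2 fold change of the tested members was -0.08, with the middle of the distribution, from the lower to the upper quartile, between -0.15 and -0.00. The same quartiles over all genes tested were -0.22 and 0.22, around a median of -0.02. For 65 of the 77 members (84.4%), the 95% interval of the log2 fold change lay wholly within 0.5 of 0, a 1.41-fold change, which held for 42.8% of all genes tested. The median SE was 0.11 for the members and 0.14 for all genes tested. By subunit, the large-subunit genes had a median of -0.05 (46 tested, 1 higher and 1 lower) and the small-subunit genes one of -0.10 (31 tested, 1 higher and 2 lower).

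More members had a negative than a positive log2 fold change, 58 against 19, or 75.3% negative where all genes tested had 52.3%. Genes of like counted length, the 1618 other tested genes counted over 448 to 1405 bases, had a median of -0.08, and 60.0% were negative. The number of negative values moved with single libraries. Without cold replicate 5, 44 of the 77 members were negative and their median was -0.03. Without control replicate 3 it went the other way, with 63 negative and a median of -0.13. The fits that each left out one of the other 8 libraries gave 52 to 62 negative members and medians of -0.11 to -0.05. Without control replicate 2 and cold replicate 5 together, 39 were negative and the median was -0.01, while that of genes of like length was -0.07.

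Rps2, a small-subunit protein near the channel through which messenger RNA enters (mm9 chromosome 17, 24857008 to 24858872, plus strand), was the clearest rise. The 5 control libraries held 76.7, 76.7, 70.99, 89.3 and 83.4 CPM of Rps2, and the 5 cold libraries 106, 108, 118, 119 and 98.0 CPM. Every cold library lay above every control. The mean went from 79.4 ± 7.05 to 109.9 ± 8.80 CPM (SD, n = 5 and 5). On the log2 scale this fitted difference was 0.47, with an SE of 0.086 and an adjusted p of 0.00255 by edgeR's quasi-likelihood test. Under the 21 other ways of fitting the data it stayed between 0.43 and 0.51 and was called in each. Only 21.0% of the 50-base windows of the Rps2 transcript occur in no other transcript of the GENCODE annotation, and 71 pseudogenes share at least 1 window with it. How reads that match several places were counted is not given in the sources used here, so the value may include reads of copies.

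Rps19, a small-subunit protein needed to mature 18S ribosomal RNA and the gene most often mutated in Diamond-Blackfan anaemia (mm9 chromosome 7, 25669733 to 25674821, plus strand), fell. Control libraries held 93.4, 96.5, 93.0, 104 and 107 CPM of Rps19, and cold libraries 79.9, 82.2, 79.0, 76.1 and 69.2 CPM. All 5 cold libraries lay below all 5 controls. The log2 fold change was -0.35 (SE 0.077, adjusted p = 0.0068 by edgeR's quasi-likelihood test), from 98.7 ± 6.17 to 77.3 ± 5.00 CPM (SD, n = 5 and 5). It was called under all 21 other settings, between -0.38 and -0.32. Of its transcript's windows, 46.4% are unique, and 15 pseudogenes share some of the rest.

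Rps24, which also acts in 18S maturation (mm9 chromosome 14, 25309903 to 25315368, plus strand), fell by a similar amount but with less room between the groups. Its control libraries held 90.9, 91.2, 99.7, 108 and 115 CPM, and its cold libraries 89.1, 81.6, 80.0, 89.9 and 64.2 CPM. The groups did not overlap, though the highest cold library was only just below the lowest control. The log2 fold change was -0.32 (SE 0.11, adjusted p = 0.0496 by edgeR's quasi-likelihood test), and it kept its call in 2 of the 10 fits that each left out 1 library. The 8 fits that lost it were those without control replicate 3, 4 or 5 or without any 1 of the cold replicates, with adjusted p of 0.0546 to 0.114.

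Rpl9, a large-subunit protein near the site where elongation factors bind (mm9 chromosome 5, 65779603 to 65782670, minus strand), was lower in the cold at the edge of the threshold. Control libraries held 22.8, 30.01, 19.99, 26.4 and 25.6 CPM of Rpl9 and cold libraries 18.4, 18.8, 22.2, 19.5 and 14.0 CPM. The groups overlapped, with cold replicate 3 above control replicate 3. Its log2 fold change was -0.42 (SE 0.14, adjusted p = 0.0495 by edgeR's quasi-likelihood test). The call held in 3 of the 10 fits without 1 library and was lost without control replicate 2, 4 or 5 or cold replicate 1, 2, 4 or 5 (adjusted p 0.0759 to 0.0951). The calls of Rpl9 and Rps24 were both lost with upper quartile scaling, with no scaling and with no filter on low counts (adjusted p 0.0507, 0.0983 and 0.0553 for Rpl9, and 0.0591, 0.122 and 0.0529 for Rps24). Only 6.68% of the windows of the Rpl9 transcript are unique.

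Rpl39l, the relative of the exit-tunnel protein Rpl39 that is best known from spermatogenic cells (mm9 chromosome 16, 10170321 to 10175004, plus strand), rose from a very low level. It had 8, 5, 9, 12 and 7 counts in the control libraries and 11, 26, 53, 22 and 17 in the cold libraries, or 1.81, 0.981, 2.07, 2.02 and 1.44 against 1.89, 4.04, 7.55, 3.49 and 3.18 CPM. Cold replicate 1 lay within the control range and the other 4 cold libraries above it. The log2 fold change was 1.28 (SE 0.37, adjusted p = 0.028 by edgeR's quasi-likelihood test). The call was lost without control replicate 2 (adjusted p = 0.0511), control replicate 5 (0.0627), cold replicate 2 (0.0538) or cold replicate 3 (0.0726, log2 fold change 0.92), and with limma-voom in place of edgeR (0.0584). The transcript shares no 50-base window with another gene's, so reads of Rpl39 itself could match it only over shorter stretches.

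The coding sequences of Rpl39 and Rpl39l are shown because the ratio of their counts differed between the groups and the pair can be told apart by sequence. Both are 156 bases long and 85.3% identical; capitals mark the 23 bases at which they differ, 16 of them at the third position of a codon, and the longest identical stretch is 38 bases.
Rpl39: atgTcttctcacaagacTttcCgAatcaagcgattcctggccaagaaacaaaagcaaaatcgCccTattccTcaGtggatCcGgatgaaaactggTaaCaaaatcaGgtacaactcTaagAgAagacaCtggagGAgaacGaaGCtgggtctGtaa
Rpl39l: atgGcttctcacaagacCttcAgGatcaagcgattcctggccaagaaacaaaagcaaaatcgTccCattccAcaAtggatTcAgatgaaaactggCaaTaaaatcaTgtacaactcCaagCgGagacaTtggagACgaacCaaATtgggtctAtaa
Rpl39 itself had 20.6 ± 5.00 CPM in the controls and 17.8 ± 2.36 CPM in the cold (SD, n = 5 and 5; log2 fold change -0.21, SE 0.17, adjusted p = 0.4 by edgeR's quasi-likelihood test).

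**Figure D2:**
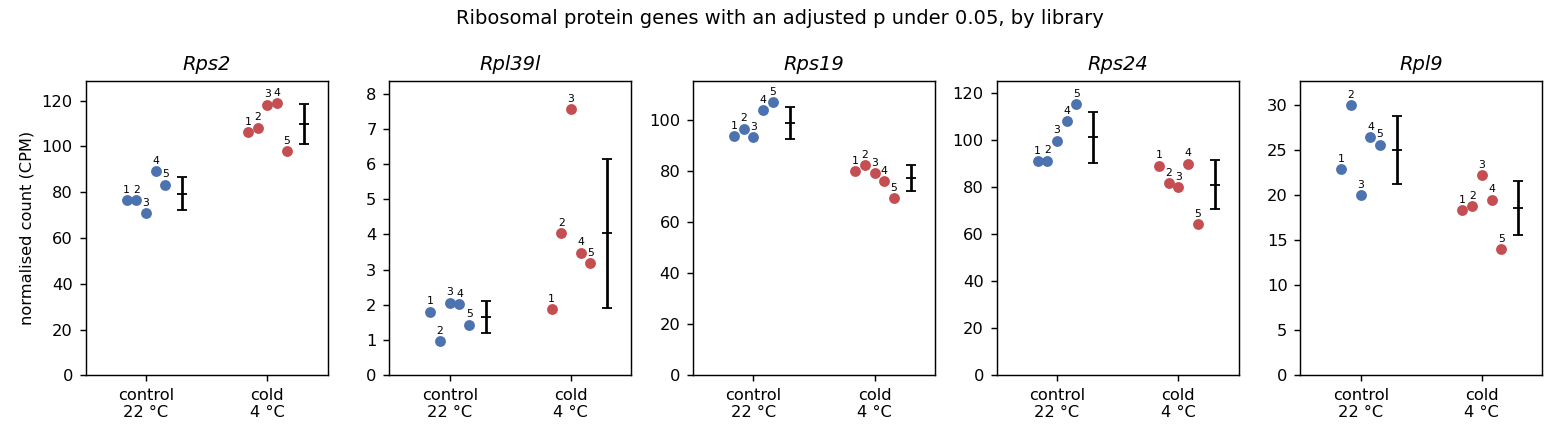
Normalised count in CPM (vertical axis, from 0) of the 5 ribosomal protein genes with an adjusted p under 0.05, with 1 point per library numbered by replicate and the mean ± SD of 5 libraries in black. The groups do not overlap for Rps2, Rps19 and Rps24, and do for Rpl39l and Rpl9.

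Libraries of the groups did not overlap for 3 tested members, Rps2 above and Rps19 and Rps24 below the controls. That is 3.9% of the members, where 14% of all genes tested had no overlap. In the authors' deposited table of the same comparison, 77 members were listed and 4 had an FDR under 0.05, namely Rps2 and Rpl39l higher and Rps19 and Rpl9 lower. In the authors' deposited table as a whole, 19.8% of 11241 genes passed that threshold. Its FDR for Rps24 was 0.0579.

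The proteins of the stalk that recruits elongation factors did not pass the test. Rplp0, its base, had 291 ± 29.0 CPM in the controls and 285 ± 20.1 CPM in the cold, with a log2 fold change of -0.03 (95% interval -0.21 to 0.15). Rplp1 was at 0.04 (-0.17 to 0.25) and Rplp2 at -0.18 (-0.38 to 0.01). The pair that binds 5S ribosomal RNA and, when free, the p53 regulator Mdm2 had values of -0.09 for Rpl5 (-0.38 to 0.19) and -0.13 for Rpl11 (-0.37 to 0.11). Rps6, the substrate of the S6 kinases, was at -0.09 (-0.26 to 0.07), and Rpsa, also known as the laminin receptor, at -0.11 (-0.38 to 0.17).

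Genes that encode a ribosomal protein fused to ubiquitin or a ubiquitin-like protein gave -0.08 for Rps27a (95% interval -0.33 to 0.18) and -0.18 for Fau (-0.39 to 0.04). Beyond the family's naming, Gnb2l1, the small-subunit scaffold also called Rack1, was at -0.08 (SE 0.094) and Rpl36al at 0.17 (SE 0.1), neither of which passed the test.

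Several of these genes have a relative with a separate locus, and the pair can be compared within each library, where the library total cancels. The log2 ratio of Rpl39l to Rpl39 counts, with 0.5 counts added to each, was -3.35, -4.12, -2.67, -3.60 and -4.05 in the controls and -3.30, -2.36, -1.14, -2.23 and -2.24 in the cold libraries. All but cold replicate 1 lay above every control. The mean difference was 1.30 (exact two-sided permutation test, p = 0.0159, adjusted p = 0.0317 over 4 pairs). For Rpl7l1, a relative of Rpl7 found in precursors of the large subunit, the ratio was 0.33, 0.11, 0.19, 0.17 and 0.00 in the controls and 0.39, 0.44, 0.46, 0.42 and 0.65 in the cold libraries. Every cold library lay above every control, with a mean difference of 0.31 (exact two-sided permutation test, p = 0.00794, the smallest that 5 against 5 allow, adjusted p = 0.0317 over 4 pairs).

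Neither member of the Rpl7 pair passed the test by itself. The log2 value of cold relative to control for Rpl7 was -0.22 (SE 0.083, adjusted p = 0.0871), and the value for Rpl7l1 was 0.09 (SE 0.072, adjusted p = 0.404, edgeR's quasi-likelihood test). The ratios of Rpl22l1 to Rpl22 and of Rpl36al to Rpl36a differed by 0.34 and 0.22, and both overlapped between groups (adjusted p = 0.183 each, exact permutation test). The pairs were tested after their values were known. Leaving out any 1 of 8 libraries moved the adjusted p of both ratios named above to 0.0635, and leaving out control replicate 3 or cold replicate 1 did not; with 4 against 5 libraries the exact test has fewer arrangements to draw on.

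**Figure D3:**
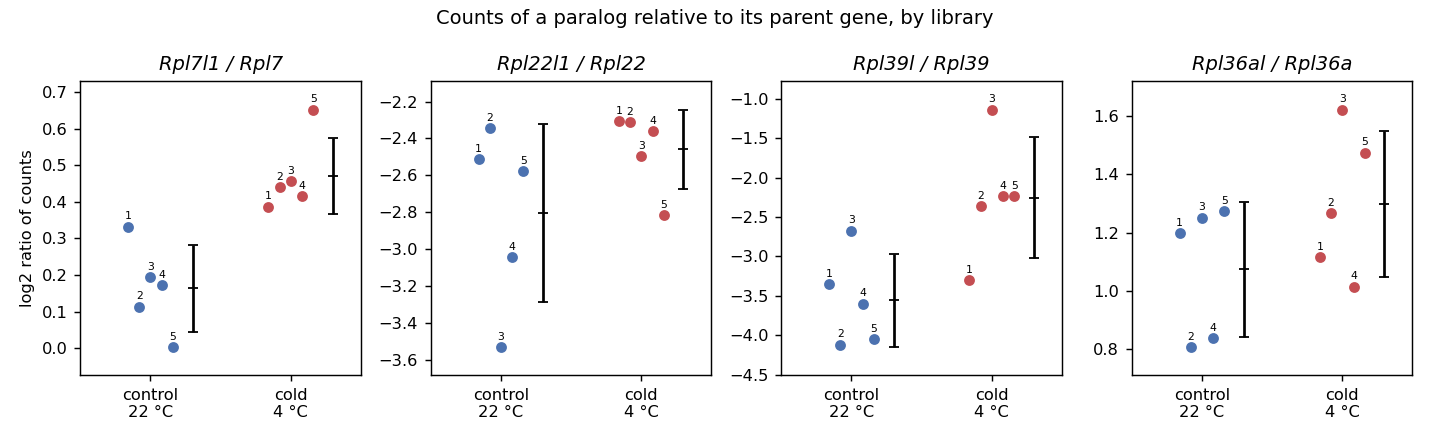
Log2 ratio of the counts of a relative to those of its parent gene (vertical axis, own scale in each panel), 1 point per library numbered by replicate, with mean ± SD of 5 libraries in black. The cold libraries lie above all controls for Rpl7l1 to Rpl7, and 4 of 5 do for Rpl39l to Rpl39.

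Among the remaining paired genes, Rpl3 had a log2 fold change of -0.09 (95% interval -0.27 to 0.09), Rpl10 of -0.02 (-0.25 to 0.20) and Rps4x of -0.19 (-0.42 to 0.05). Rpl36a was at -0.05 (-0.37 to 0.26), Rpl22 at -0.21 (-0.40 to -0.03, adjusted p = 0.0957 by edgeR's quasi-likelihood test) and Rpl22l1 at 0.09 (-0.38 to 0.55). Rps27l, a relative of Rps27 that is induced by p53, was at -0.18 (-0.37 to 0.02). Rps4l was not analysed here.

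The 7 members left untested were short of counts. Rpl26, Rpl30, Rpl34 and Rps27 were counted over only 23, 43, 79 and 1 bases of transcripts that are 526, 886, 480 and 345 bases long in GENCODE, so their counts say little about their level. Rps23, a decoding-centre protein counted over 555 bases, had 0 to 16 counts a library. Of its transcript's windows 48.3% are unique, and 12 pseudogenes share some of the rest. How reads that match several places were counted is not given, so these counts may not reflect its level. Rpl10l, the spermatogenic relative of Rpl10, had 0 counts in every library, which allows up to 0.433 to 0.675 CPM a library (3 counts of its total, covering counting error only).

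Rpl3l, which replaces Rpl3 in striated muscle, had 4, 9, 2, 2 and 2 counts in the control and 2, 12, 7, 2 and 4 in the cold libraries. The libraries with most of it in the cold group, replicates 2 and 3, were also those with the most skeletal muscle marker RNA, summed over 14 genes: 431 and 314 CPM, where the other 3 cold libraries held 38.5 to 45.3 CPM and the controls 41.8 to 143 CPM. Among the controls the most Rpl3l was in replicate 2, whose muscle sum of 41.8 CPM was the lowest of the group. The highest counts of Rpl39l were in cold replicates 3 and 2. Cold replicates 1, 4 and 5, with muscle sums of 45.3, 45.0 and 38.5 CPM, held 1.89, 3.49 and 3.18 CPM of Rpl39l. Control replicate 4, with the highest muscle sum of the controls (143 CPM), held 2.02 CPM of it. The part of muscle RNA in the counts of Rpl3l or Rpl39l was not tested.

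Levels between genes are compared per kb of the bases over which reads were counted. These genes are short: the median counted length was 688 bases for the 84 members, with 65 under 1000 bases, against 2340 bases for all genes of the table. Over all 10 libraries the tested members had a median of 85.4 CPM per kb, and all genes tested one of 8.67. Rplp1 was the highest at 494 CPM per kb, 265 times the lowest, Rpl21 at 1.87, and 74 of the 77 lay above the median of all genes tested.

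Beside Rplp1, the highest were Rps15, which acts late in the export of the small subunit (384 ± 33.6 CPM per kb in control and 364 ± 21.4 in cold libraries), and Rpl8, which lies by the peptidyl transferase centre (345 ± 40.6 and 327 ± 29.3). Rplp1 was at 487 ± 54.8 CPM per kb in control and 501 ± 51.5 in cold libraries, above both in mean. The control intervals of mean ± 1 SD of Rps15 and Rpl8 overlapped. At the low end, Rpl39l was at 2.07 ± 0.565 and 5.01 ± 2.64 CPM per kb and Rpl28 at 5.88 ± 0.875 and 4.58 ± 1.33 (log2 fold change of Rpl28 -0.36, 95% interval -0.90 to 0.18).

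Rpl21 held 3.62, 2.75, 2.30, 3.03 and 1.86 CPM in the controls and 4.12, 4.51, 2.71, 6.03 and 3.74 CPM in the cold, counted over 1856 bases. The groups overlapped through cold replicate 3. Its log2 fold change was 0.63 (SE 0.26, adjusted p = 0.108 by edgeR's quasi-likelihood test), the second highest of the family after Rpl39l. With 81 pseudogenes sharing a window, it had the most copies of the genes named here.

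The genes differed widely in how much of their sequence is their own, which can touch each level above. The median member had 46.5% of its 50-base transcript windows to itself, 48 of 84 had less than 50%, and 81 shared a window with at least 1 pseudogene. Over the 77 tested members, the rank correlation of the unique share with CPM per kb was 0.20, and with the log2 fold change 0.01. Counted length had a rank correlation with the log2 fold change of 0.15 over the members and 0.12 over all genes tested. These are descriptions across genes, which are not independent replicates.

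**Figure D4:**
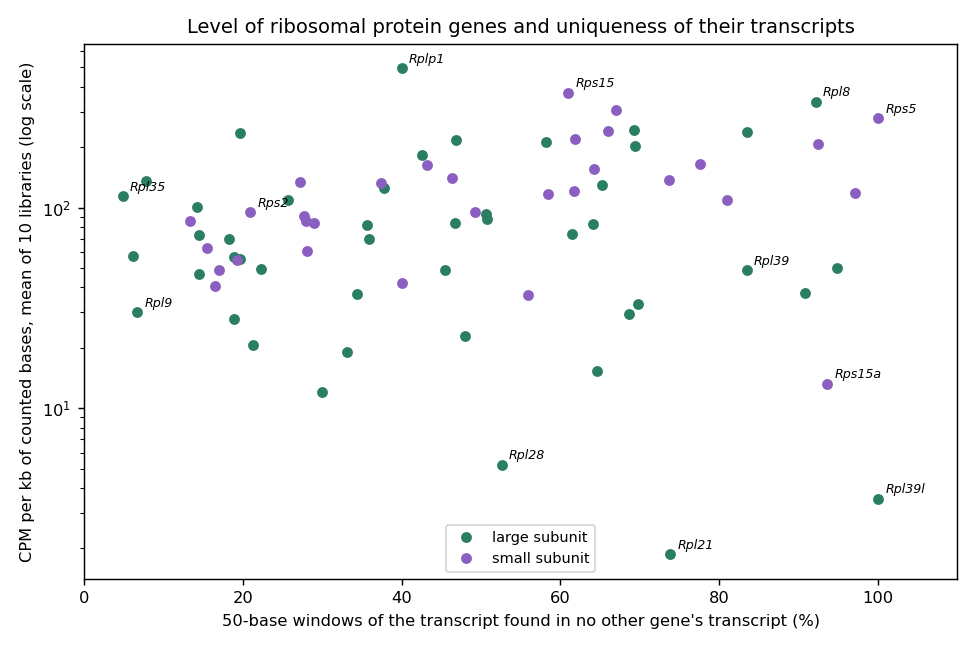
Mean level of each tested ribosomal protein gene over 10 libraries in CPM per kb of counted bases (vertical axis, log scale) against the share of 50-base windows of its transcript that occur in no other gene's transcript (horizontal axis, percent). Rplp1 at 494 and Rpl21 at 1.87 CPM per kb mark the ends, and low as well as high levels occur among genes with mostly unique windows.

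The members' summed level varied between libraries of the same group. Their share of all counts was 0.586, 0.686, 0.555, 0.697 and 0.674% in control and 0.662, 0.652, 0.673, 0.669 and 0.501% in cold libraries. The means were 0.640 ± 0.0644% and 0.632 ± 0.0734% (SD, n = 5 and 5), and the difference was smaller than the spread within either group. Control replicate 3 and cold replicate 5 were the lowest of their groups. Without cold replicate 5 the cold mean was 0.664%.

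Relative to each gene's own mean log2 CPM, the median deviation of the members was -0.27 in cold replicate 5 and -0.17 in control replicate 3, and lay between -0.04 and 0.13 in the other 8 libraries. Cold replicate 5 had the lowest value of the cold group for 64 of the 77 members (83.1%), where it had the lowest for 29.4% of all genes tested. Control replicate 3 was the lowest control for 49 members (63.6%, against 17.0% of all genes tested). Genes of like counted length had median deviations of -0.08 and -0.02 in these same libraries.

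**Figure D5:**
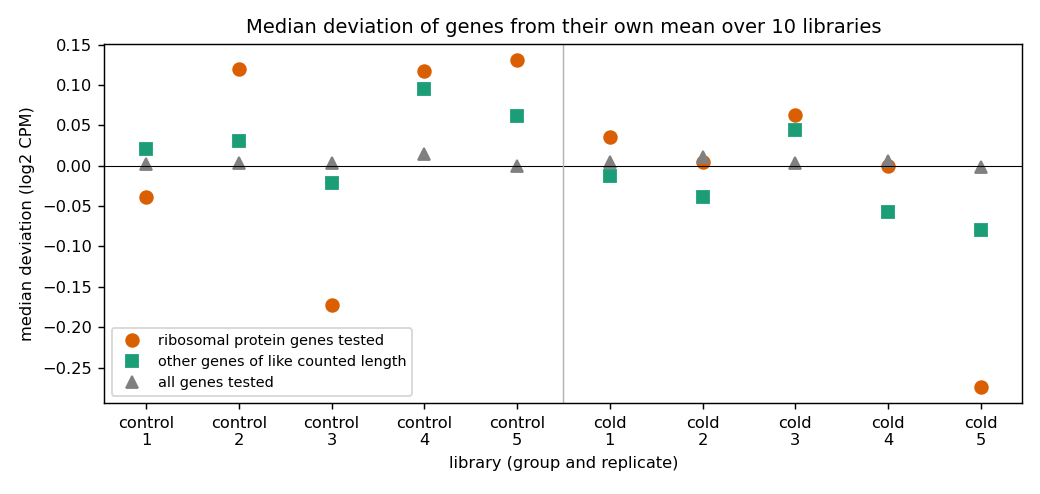
Median deviation of log2 CPM from each gene's mean over 10 libraries (vertical axis), per library (horizontal axis), for the 77 tested ribosomal protein genes, 1618 other genes of like counted length and all genes tested. The ribosomal protein genes lie at -0.17 in control replicate 3 and -0.27 in cold replicate 5, below both other sets.

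Across the 10 libraries, 65 of the 77 members (84.4%) had a Pearson r over 0.5 with the mean profile of the tested members, which each member enters, and 8.56% of the other genes did. The 5 other genes most like that profile were Lama2 (r = 0.938), a laminin chain of basement membranes, Mcm4 (0.923) of the replicative helicase, Gimap3 (0.923), a GTPase of lymphocytes, Adam1a (0.917) and Cst3 (0.911), a secreted cystatin. These values describe 10 libraries that fall into 2 groups, and the highest of 11229 genes are shown.

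Markers of some other cells were also low in cold replicate 5. Fibroblast markers summed to 271 CPM there against 693 to 926 CPM in the other cold libraries, macrophage markers to 105 against 189 to 417 CPM, and lymphocyte markers to 1.31 against 4.42 to 9.32 CPM. White adipocyte markers summed to 27.9 against 34.1 to 126 CPM, and skeletal muscle markers to 38.5 against 45.0 to 431 CPM. Its endothelial sum of 968 CPM lay within the range of the other cold libraries (914 to 1093 CPM), as did its erythroid sum of 17.2 CPM (15.1 to 45.5 CPM). In control replicate 3 the fibroblast, macrophage and lymphocyte sums were 485, 139 and 6.20 CPM. These lay within or near the range of the other controls (413 to 626, 144 to 288 and 4.75 to 6.47 CPM). The fibroblast sums of the other 4 cold libraries lay above those of all controls. None of the 8 fibroblast markers passed the test (median log2 fold change 0.43), with Col1a1 nearest to it at 0.88 (SE 0.29, adjusted p = 0.0503 by edgeR's quasi-likelihood test). Of 10 macrophage markers 2 rose and 1 fell, and none of 11 lymphocyte markers had enough counts to be tested. The part of other cells in the members' levels was not tested.

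The other genes of ribosome production differed by list in how many were called, where the share over all genes tested was 19.3%. Of 23 tested genes among elongation factors and other TOP messengers, 0 rose and 1 fell, Eif4a2, an RNA helicase of translation initiation (-0.33, SE 0.1, adjusted p = 0.0357 by edgeR's quasi-likelihood test), and their median was -0.08. Of 53 ribosome biogenesis genes, 1 rose, Nop2, a methyltransferase of ribosomal RNA (0.47, SE 0.12, adjusted p = 0.0145), and 3 fell, among them Sbds, which acts in the last steps of large-subunit maturation (-0.41, SE 0.13, adjusted p = 0.0396). Their median was 0.00. Nop2 was called under all 21 alternatives. The calls of Eif4a2 and Sbds held in 4 and 5 of the 10 fits without 1 library: each was lost without control replicate 4 or any of cold replicates 1 to 4, and that of Eif4a2 also without control replicate 3.

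Of 19 genes for RNA polymerase I and its factors, 0 rose and 3 fell, where 19.3% of all genes tested were called. Their median was -0.02. Polr1c, a subunit that polymerases I and III share, fell by 0.47 on the log2 scale (SE 0.094, adjusted p = 0.00413 by edgeR's quasi-likelihood test), and Polr2e, common to the nuclear polymerases, by 0.48 (SE 0.077, adjusted p = 0.00113). Both therefore also belong to other polymerases. Ubtf, the activator specific to ribosomal RNA genes, fell by 0.28 (SE 0.093, adjusted p = 0.0484), and its call held in 3 of the 10 fits without 1 library, those without control replicate 1, control replicate 3 or cold replicate 5. Polr1c and Polr2e were called under all 21 alternatives.

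Of 20 tested regulators of ribosomal protein synthesis, 3 rose and 2 fell, where 19.3% of all genes tested were called. Their median was 0.06. Eif4ebp1, the repressor of cap-dependent translation that mTORC1 inactivates, held 277, 200.1, 259, 263 and 267 CPM in the controls and 127, 121, 135, 120.0 and 142 CPM in the cold. All cold libraries lay below all controls, and its log2 fold change was -0.97 (SE 0.095, adjusted p = 3.07e-05 by edgeR's quasi-likelihood test). Its relative Eif4ebp2 rose by 0.56 (SE 0.14, adjusted p = 0.0143), Mtor by 0.50 (SE 0.13, adjusted p = 0.0163) and Gabpa, an ETS-family factor, by 0.54 (SE 0.1, adjusted p = 0.00324). Maf1, the repressor of RNA polymerase III, fell by 0.33 (SE 0.083, adjusted p = 0.0155). These 5 genes were called under all 21 alternatives.

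The 77 mitochondrial ribosomal protein genes, all tested, serve as the closest comparison, since their products form the ribosome of the mitochondrion. Of these 6 rose and 9 fell, where 19.3% of all genes tested were called, and their median was -0.04. Mrps2, a protein of the mitochondrial small subunit, rose by 0.53 (SE 0.1, adjusted p = 0.00301) and Mrpl33, one of the large subunit, fell by 0.44 (SE 0.083, adjusted p = 0.00282, edgeR's quasi-likelihood test). Their called share was not tested against that of the cytosolic genes.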

How the data were processed

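The deposited table holds raw counts per RefSeq gene model for 10 libraries, with the bases counted per model, per the file headers. STAR, edgeR and build mm9 are named in the submitters' processing notes; no source used here gives versions, read length, the counter, its strand setting or its handling of multiply mapped reads. The authors' deposited table lists per gene its log2 fold change, log2 CPM, p-value and FDR, per the file headers. Control columns carry no group word and were matched to control samples by replicate number. Of the symbols, 27 were dates or repeats and were replaced by the RefSeq identifier.

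Counts were fitted on the whole table with edgeR 4.0.16 in R 4.3.3 (TMM scaling, filterByExpr, quasi-likelihood F test, no covariate), which kept 11229 genes, with two-sided p-values adjusted by Benjamini and Hochberg and a threshold of 0.05. The common biological coefficient of variation was 0.166. The SE is the log2 fold change divided by the root of F. Log2 CPM used a prior count of 2. The fitting was tested on simulated data. Window uniqueness was computed over GENCODE M21 transcripts, promoter starts were read from RefSeq on GRCm38.p6, and no coordinate was moved between builds; all 84 members matched a transcript and 64 a promoter. The labels name separate mice, and replicate libraries differed beyond counting noise (chi-square per degree of freedom 3.09 to 37.8). The alternatives were RLE, upper quartile and no scaling; library sizes without the members or without the 20 most abundant genes; no filter, or 5 or more libraries over 1 CPM; limma-voom (limma 3.58.1) and DESeq2 1.42.0; the replicate number as a block; and leaving out each library, or control replicate 2 and cold replicate 5 together. The paralog ratios and their alternatives were added after seeing the data.

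The members, lists and named genes were chosen with earlier results of these data known. Named were the members called; the 3 highest and 3 lowest per counted length; relatives and their parents; Rpsa, Fau, Rps6, Rplp0, Rplp1, Rplp2, Rpl5, Rpl11 and Rps27a; the untested members; the 2 smallest p per other list; and the 5 genes most like the members' mean. Other list genes, called (Ubtf, Eif4ebp2, Mtor and Maf1) or not (Gnb2l1), were named after their values were seen. A gene that the rule takes is not reported here. Of 12 host genes of small nucleolar RNAs, 0 matched the table and none was analysed here. Of the other marker lists, endothelial markers gave 2 higher of 9 tested, erythroid 1 of 1, white adipocyte 1 of 5, brown adipocyte 3 higher and 1 lower of 11, and skeletal muscle 0 of 2.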

Additional observations from a re-analysis of the deposited data

Results flagged for a closer look

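Of 66 sets of 5 libraries examined for a value set apart from the rest, 5 held one, and chance gives about 5%. All 5 were cold replicate 5. Its members' share of counts was 0.501%, against 0.652 to 0.673% in the other cold libraries. It held 87.5 CPM of Rpl22 (others 99.7 to 104), 12.3 CPM of Rpl22l1 (others 18.4 to 20.6) and 238 CPM of Rpl8 (others 282 to 299.5). The log2 ratio of Rpl7l1 to Rpl7 was 0.65 there, against 0.39 to 0.46 in the others. The sums of fibroblast, macrophage, lymphocyte, white adipocyte and skeletal muscle markers were also lowest in that library among the cold group. Their part in these values was not tested.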

How the results depend on the processing

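Rps2 and Rps19 kept direction and call under all 21 alternatives, and Rpl39l, Rpl9 and Rps24 kept direction in all and their call in 16, 9 and 9 of them. Lower members numbered 1, in place of 3, with upper quartile scaling, with no scaling, with no filter and with the replicate block; higher members numbered 1, in place of 2, with limma-voom. Without 1 library, higher members ranged from 1 to 2, lower members from 1 to 3, non-overlapping members from 1 to 2 above and from 2 to 6 below the controls, and called genes of the other ribosome lists from 8 to 17 higher and from 7 to 20 lower. In these fits without 1 library, 13.8 to 21.4% of all genes tested were called. Members below the controls without overlap numbered 1 with upper quartile or no scaling. Those above numbered 4 without control replicate 2 and cold replicate 5 together. With libraries left out, groups are less likely to overlap for any gene, and the share over all genes in those fits is not given here. The other lists held 10 higher and 19 lower genes, where 19.3% of all genes tested were called. With no scaling they held 17 higher and 10 lower, where 19.1% of all genes tested were called. No scaling moved the median of all genes tested from -0.02 to 0.01. Without control replicate 2 and cold replicate 5 together, Rpl5 and Rplp0, uncalled throughout, went to 0.07 and 0.07. The median of the members ranged from -0.13 to -0.01 over all alternatives. Relative to totals without the 20 most abundant genes, the members' share of counts was 0.810% in control and 0.772% in cold libraries and their median level 106 CPM per kb. The tract was found in 46.9% of members with the wider rule. The cause of these shifts was not tested.

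Replicate numbers are not said to pair the mice. Deviations of same-numbered libraries correlated at 0.13, -0.02, -0.07, 0.19 and -0.25, which cannot decide it, since a pairing need not leave a correlation. Only numbers 1 and 4 correlated best with their own partner. With the replicate block, 1789 of 11229 genes were called in place of 2168, the members' calls were 2 higher and 1 lower, without Rpl9 (adjusted p = 0.0899) and Rps24 (0.0987), and the other lists had 9 higher and 9 lower. Depth limits the low genes: Rpl39l rests on 5 to 53 counts a library, and Rpl10l on 0.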
